A study of Mus musculus with 2 samples.

Results

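Chromatin writers, erasers and remodelers were examined as a group of 49 genes listed by name. The list was not cut by a measured value, but it was drawn up with earlier results of these arrays known. They encode enzymes that add or remove methyl and acetyl groups on histones and DNA, subunits of the complexes these enzymes work in, HP1 proteins that bind methylated histone H3, and ATPases that slide or evict nucleosomes. Probe sets carrying the symbol of a single gene measured 40 of the 49, among 11807 genes in all. The other 9, Hdac3, Ncor1, Ep300, Crebbp, Kat5, Kdm5a, Kdm6b, Suv39h1 and Smarca4, were not analysed here. Of the 40, 39 exceeded a background floor on at least 1 array. The floor, an intensity of 30.5, is the 95th percentile of genes that belong to other tissues such as liver, heart and testis.

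The samples were CD4+ T cells taken naive from lymph nodes and spleen of C57BL/6J females and activated through CD3 and CD28 by antibodies bound to the plate for 60 h. The untreated group is 1 culture without added cytokine and the IL-27-treated group is 1 culture with recombinant mouse IL-27 at 25 ng/ml, each read on 1 microarray. The sources used here do not state the age or number of the mice or any pooling, and the labels name no genetic change. With 1 array per group no test, standard error or p-value is possible. The differences below describe 2 arrays and cannot separate the cytokine from ordinary variation between cultures. A difference is always the log2 intensity on the IL-27-treated array minus that on the untreated array.

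Naive CD4+ T cells divide and take on effector fates after activation, and chromatin enzymes fix which cytokine and lineage genes each fate can use. Polycomb complex PRC2 methylates histone H3 at sites of silenced genes, PRC1 binds and compacts such sites, and DNA methyltransferases silence genes such as Ifng in cells committed to another lineage. STAT3, a factor that IL-27 activates, recruits acetyltransferases to its targets. The screen asked which regulators IL-27 induces, and the same arrays give the RNA levels of the chromatin machinery in both cultures.

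Directions follow the labels of the arrays. Socs3, a feedback inhibitor that STAT3 induces, had an intensity of 1122.5 on the untreated array and 185.8 on the IL-27-treated array, which is the reverse of its known response. Il21, also known to be raised by IL-27, was at 384.3 and 26.7. Socs3 and Il21 were picked outside any list, and other genes known to respond to IL-27 are not given here. Whether the labels of the 2 arrays were exchanged was not tested; if they were, each higher and lower below would turn. Of 10 T cell markers 8 were measured, and all 8 were above the floor, with Cd4 at 342.5 and 395.4 and Cd3e at 607.0 and 546.2 on the untreated and IL-27-treated array. Their median difference was -0.27, and their summed intensity was 13490.1 and 10823.8. None of the measured B cell (6), granulocyte and mast cell (5), erythroid and platelet (3) or stromal and endothelial (5) markers was above the floor. Of 3 NK and gamma-delta T cell markers 1 was above it, Klrd1, at 114.2 and 16.4, and the list summed to 139.0 and 40.6. The macrophage and dendritic cell list had 1 of 7, Cd68, at 54.9 and 27.5, and summed to 150.4 and 124.9. Of the CD8 markers, Cd8b1 was at 119.3 and 176.5 and Cd8a was below the floor. The part of these shifts in the differences of the chromatin genes was not tested, and in bulk RNA fewer cells of a type and less RNA per cell cannot be told apart.

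Differences among the chromatin genes were small. None of the 39 was at least 2-fold higher and none at least 2-fold lower on the IL-27-treated array, where 1.56% and 2.79% of all 6604 genes above the floor were. At a limit of 1.5-fold, Dnmt3b, Cbx1 and Smarca5 were higher, 7.69% of the 39 against 5.25% of all genes. Hdac5 and Hdac7 were lower, 5.13% against 7.28%. Both shares were near the background of all genes, so the counts past a fold limit set the group apart in neither direction. The number on the higher side by any amount was 28 of 39 (71.8%), against 52.6% of all genes. The median difference was 0.10, with quartiles of -0.04 and 0.24, where all genes had a median of 0.02 and quartiles of -0.20 and 0.22.

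**Figure D1:**
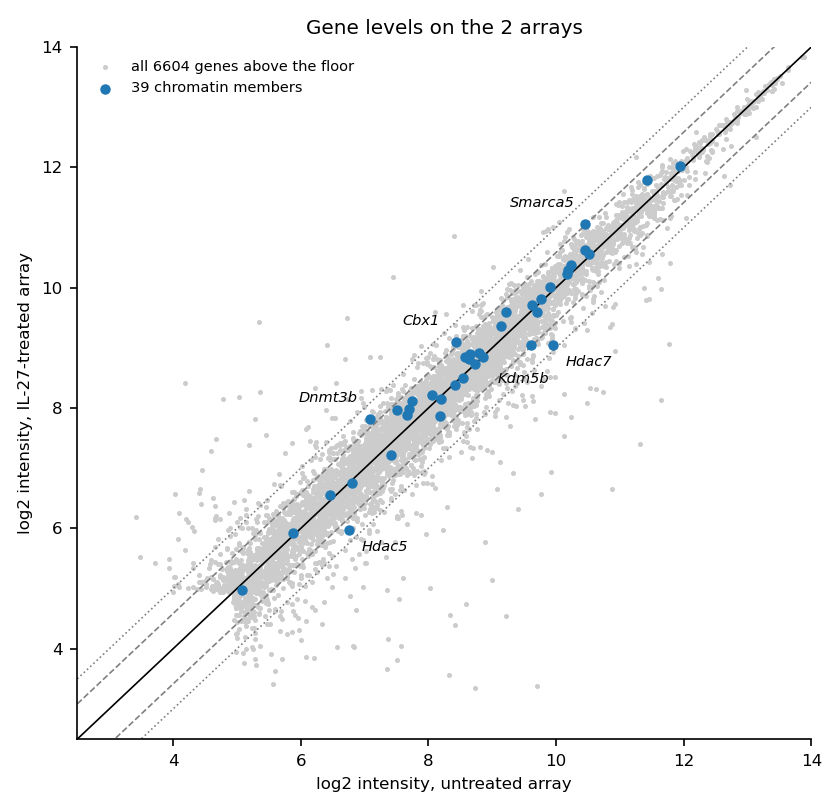
Each point is 1 gene, with its log2 intensity on the untreated array (x) against the IL-27-treated array (y), and grey for all 6604 genes above the floor and blue for the 39 chromatin genes. The solid line marks equal levels, dashed lines 1.5-fold and dotted lines 2-fold. The blue points follow the solid line, with Hdac7, Hdac5 and Kdm5b the farthest below it and Dnmt3b, Cbx1 and Smarca5 the farthest above.

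The only gauge of technical error was the agreement of probe sets, groups of short probes that read the same gene at different places. Over 1957 genes with several probe sets above the floor on both arrays, the SD of the log2 difference of a single probe set was 0.18. The median gap between the 2 brightest probe sets was 0.15 over these genes and 0.20 over the 20 chromatin members among them. The SD covers error at the level of the probes, not between cultures or hybridizations, and passing it does not establish a change. The 40 genes had 81 probe sets, 69 of them above the floor, and 14 genes had a single one. Among the 21 with several above the floor, all differences had the same sign for 16 and both signs for 5, which were Bmi1, Rnf2, Kat2a, Wdr5 and Arid1a.

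The promoters of the 5 genes past 1.5-fold are shown because these genes carry the differences, 3 in one direction and 2 in the other. Each sequence is the 250 bases before the start of transcription in RefSeq, build GRCm38.p6, written 5′ to 3′ on the strand of the gene. Capitals mark matches on either strand to the GC box GGGCGG, the core site of Sp1-type factors, and to TTCNNNGAA, the palindromic core bound by STAT dimers. These motifs, with E2F (TTTCCCGC or TTTGGCGC) and the CCAAT box, were chosen with the results known, and matches to different motifs may overlap. Hdac7 has 4 annotated starts, and of its windows the one with the most STAT matches, 2, is shown.
Dnmt3b (chr2:153649199-153649448, + strand): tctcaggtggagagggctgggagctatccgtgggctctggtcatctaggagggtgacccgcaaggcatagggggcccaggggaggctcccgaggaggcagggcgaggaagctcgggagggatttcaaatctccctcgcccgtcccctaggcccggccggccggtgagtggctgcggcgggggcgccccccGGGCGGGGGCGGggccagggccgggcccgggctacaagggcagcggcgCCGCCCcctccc
Cbx1 (chr11:96788885-96789134, + strand): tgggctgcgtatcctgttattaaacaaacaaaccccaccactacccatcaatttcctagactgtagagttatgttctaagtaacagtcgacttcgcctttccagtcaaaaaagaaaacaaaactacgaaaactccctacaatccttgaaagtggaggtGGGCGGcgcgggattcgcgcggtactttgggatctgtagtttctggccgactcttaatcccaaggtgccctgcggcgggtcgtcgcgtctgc
Smarca5 (chr8:80739460-80739709, - strand): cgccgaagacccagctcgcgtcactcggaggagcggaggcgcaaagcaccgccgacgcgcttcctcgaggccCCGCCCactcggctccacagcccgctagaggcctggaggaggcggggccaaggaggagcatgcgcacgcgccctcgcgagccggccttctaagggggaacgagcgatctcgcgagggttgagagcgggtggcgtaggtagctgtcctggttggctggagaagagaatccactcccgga
Hdac5 (chr11:102230173-102230422, - strand): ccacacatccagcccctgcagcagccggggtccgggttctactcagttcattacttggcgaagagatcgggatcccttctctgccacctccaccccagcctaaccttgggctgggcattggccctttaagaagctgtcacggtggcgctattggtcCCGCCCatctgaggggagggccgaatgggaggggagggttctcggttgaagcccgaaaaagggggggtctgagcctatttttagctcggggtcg
Hdac7 (chr15:97831768-97832017, - strand): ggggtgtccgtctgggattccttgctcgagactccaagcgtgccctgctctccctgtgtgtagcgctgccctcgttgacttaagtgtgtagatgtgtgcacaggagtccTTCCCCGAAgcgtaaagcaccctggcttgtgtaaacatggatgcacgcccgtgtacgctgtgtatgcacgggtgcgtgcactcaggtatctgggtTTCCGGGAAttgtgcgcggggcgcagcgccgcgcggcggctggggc

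A GC box match lay in 47 of 65 promoter windows of the chromatin genes (72.3%), which covered 43 of the 49 genes, against 32.7% of all 32851 windows. The 250 bases held a median of 21.0 CG pairs, against 6.0 in all windows. Dnmt3b had 3 GC box matches and 21 CG pairs, Smarca5 1 and 29, Cbx1 1 and 16, and Hdac5 1 and 12. For Hdac7 the printed window had 21 CG pairs and no GC box match, while the window at chr15:97831496-97831745 had 1 GC box match, 25 CG pairs and no STAT match. A STAT match was rarer, in 3 of the 65 windows (4.62%) and 7.02% of all, and belonged to Hdac7 and Brd2. In the window of Hdac7 printed above, the matches began 141 and 46 bases before the start, and a second of its 4 windows held 1 match, 222 bases before another start. E2F letters stood in 4 windows (6.15%, against 1.30% of all), those of Arid1a, Cbx3, Smarcd1 and Suz12. The CCAAT box was in 33.8% of the windows of these genes and of all windows. A match is a run of letters and was not shown here to be bound.

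All 4 DNA methylation genes were higher by some amount, as were 52.6% of all genes, and the median difference of the 4 was 0.34. Dnmt3b, a de novo methyltransferase that marks unmethylated DNA, had intensities of 135.0 on the untreated array and 226.2 on the IL-27-treated array, or 1.68-fold higher. Of all genes above the floor, 97.1% had a difference at or below that of Dnmt3b (0.74). Its other probe set went from 47.0 to 82.6, a difference of 0.81. Both probe sets of Dnmt3b were thus higher by similar amounts.

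Dnmt3a, the main de novo enzyme of T cells, had 5 probe sets, each higher on the IL-27-treated array. The brightest was at 182.7 and 249.2, a difference of 0.45, and the others differed by 0.56, 0.48, 0.35 and 0.08. The smallest of these is within the probe set SD of 0.18 and the other 4 are beyond it. The maintenance enzyme Dnmt1, which copies methylation after replication, stood at 1209.8 and 1324.0 (0.13) by its single probe set. Its partner Uhrf1, which finds half-methylated DNA at the replication fork, stood at 565.6 and 662.3, with differences of 0.23 and 0.22 from a pair of probe sets. The de novo enzymes thus differed more than the maintenance enzyme by the brightest probe sets.

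The expression of Dnmt1, Uhrf1 and Ezh2 is known to follow replication, so cell cycle genes are given beside them. The median difference of the cell cycle genes was 0.17 over 28 measured genes. Of these, 24 had a positive difference (85.7%, against 52.6% of all genes) and 2 were more than 1.5-fold higher (7.14%, against 5.25%). The median of the chromatin genes (0.10) lay between that of the cell cycle genes and that of all genes (0.02). The part of the cell cycle in the differences of the chromatin genes was not tested.

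**Figure D2:**
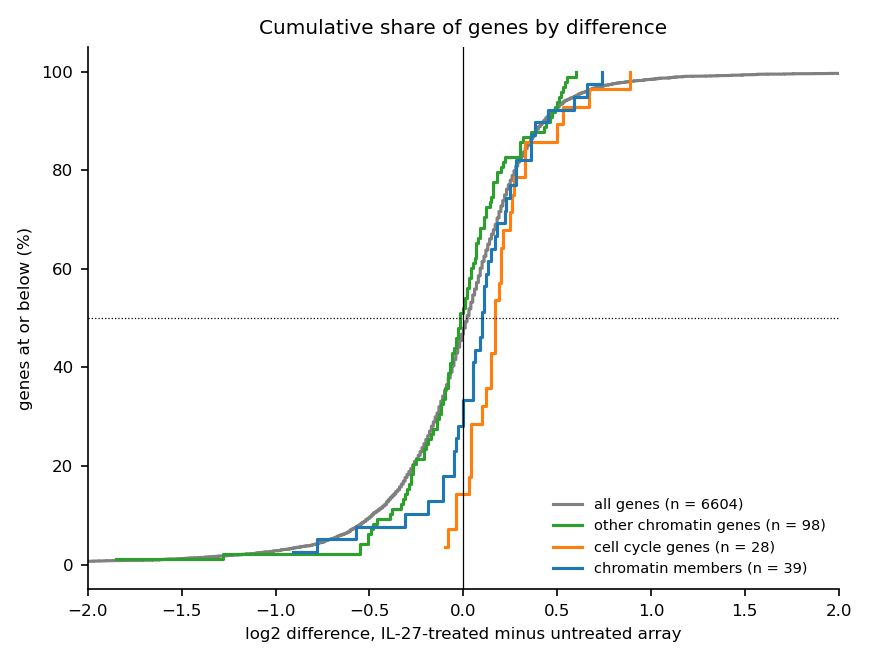
Each curve gives the share of genes (y, %) whose log2 difference is at or below the value on the x axis, for the 39 chromatin genes, 98 other chromatin genes, 28 cell cycle genes and all 6604 genes above the floor; the x axis ends at -2 and 2. Where the curves cross 50%, the members (median 0.10) lie between the cell cycle genes (0.17) and all genes (0.02).

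PRC2 genes were within 1.5-fold, with a median of 0.08 over 6. The histone methyltransferase Ezh2, which dominates in dividing cells, had intensities of 1167.5 and 1263.6 (0.11), while Ezh1, its relative in resting cells, was at 111.5 and 107.5 (-0.05), with -0.31 from its dimmer probe set. The scaffold Eed, which reads the methyl mark, was at 833.9 and 770.1 (-0.11). Suz12, which holds the complex together, was at 1453.7 and 1506.1 (0.05) by the brightest of 5 probe sets above the floor, with 0.19, 0.21, 0.09 and 0.19 by the others. The histone-binding subunits Rbbp4 and Rbbp7 also serve in deacetylase complexes. Rbbp7 showed the largest difference of the 6, with 2762.2 and 3541.8 (0.36), and Rbbp4 was at 1411.7 and 1584.3 (0.17).

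PRC1 genes barely differed between the arrays. The ubiquitin ligase Rnf2 was at 375.4 and 362.2 (-0.05), its relative Ring1 at 58.7 and 60.9 (0.05), and Bmi1, a Polycomb ring-finger subunit that supports the ligase, at 293.2 and 284.6 (-0.04). A second probe set gave 0.14 for Rnf2 and 0.21 for Bmi1, so the median of -0.04 turned to 0.05 with the mean of probe sets.

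Among the deacetylases on the member list, Hdac7 and Hdac5 of class IIa were lower and the others near equal or higher. Lower levels were not particular to class IIa. Outside the members, Hdac6 differed by -0.31, Sirt7 by -0.27, Sirt3 by -0.11 and Sirt4 by -0.07. Those of Sirt3 and Sirt4 were within the probe set SD of 0.18. Hdac9 and Hdac11 were below the floor on both arrays. Hdac7, a class IIa deacetylase that shuttles between nucleus and cytoplasm on T cell receptor signals, had intensities of 991.4 on the untreated array and 527.8 on the IL-27-treated array, 1.88-fold lower (-0.91). Its second probe set was at 215.8 and 96.8, a difference of -1.16, past 2-fold. With the mean of both probe sets Hdac7 was at -1.03, and then the only one of the 39 at least 2-fold apart.

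Hdac5, the other class IIa enzyme measured among the members, stood at 108.1 and 62.8, 1.72-fold lower (-0.78), by its single probe set. Of all genes above the floor, 3.26% had a difference at or below that of Hdac7 and 4.15% at or below that of Hdac5. The class I deacetylases Hdac1, at 1158.5 and 1203.8 (0.06), and Hdac2, at 460.1 and 461.0 (0.00), differed by less than the probe set SD. Sirt1, an NAD-dependent deacetylase, was at 202.3 and 234.9 (0.22). Sin3a, the scaffold of a class I deacetylase complex, was at 267.0 and 296.9 (0.15), with 0.33 and 0.13 from other probe sets. The median of 0.03 over these 6 genes took in both sides and turned to -0.01 after loess normalization.

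**Figure D3:**
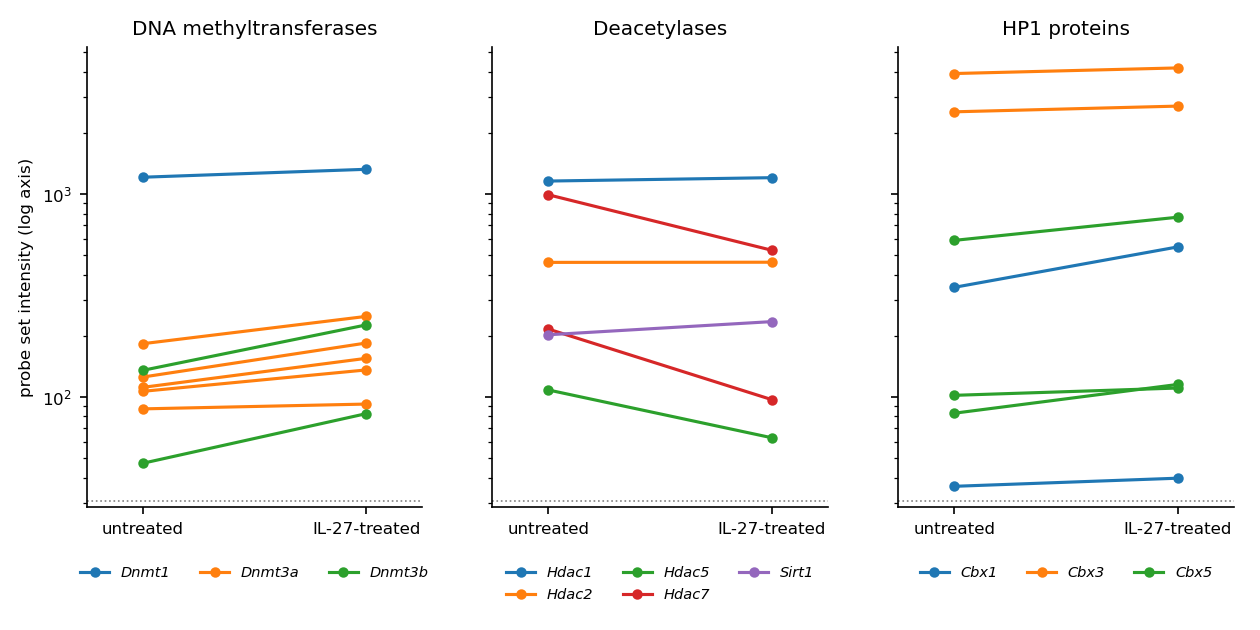
Probe set intensities (log axis) on the untreated and IL-27-treated array for DNA methyltransferases, deacetylases and HP1 proteins, 1 line per probe set above the floor, coloured by gene; the dotted line is the floor of 30.5. The 2 lines of Dnmt3b and the 5 of Dnmt3a slope up, the 2 of Hdac7 and 1 of Hdac5 slope down, and those of Hdac1, Hdac2 and Cbx3 are near flat.

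Acetyltransferases and the acetyl reader Brd2 had 3 measured members, all within 1.5-fold. Kat2b, also called PCAF, was at 290.2 and 234.2 (-0.31), and its paralogue Kat2a, also called GCN5, at 87.9 and 94.3 (0.10), with -0.05 from a dimmer probe set. Brd2, which binds acetylated histones at active promoters, was at 340.0 and 332.1 (-0.03). The sign of Brd2 turned with array medians subtracted, and that of Kat2a when probe sets prone to reading several transcripts were passed over.

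Subunits of the complexes that methylate H3K4, a mark of active promoters, were within 1.5-fold, with a median of 0.28 over 3 genes. Wdr5, the core subunit that presents the histone tail, was at 214.3 and 275.9 (0.36), but its other probe set, at 146.2 and 139.8, gave -0.06. The core subunit Ash2l was at 380.1 and 462.7 (0.28). Menin, the adaptor encoded by Men1, was at 169.6 and 148.8 (-0.19), with -0.02 from a probe set near the floor.

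Among demethylases of H3K4, Kdm5b was lower and Kdm1a near equal between the arrays. Kdm5b, which removes H3K4 methylation, was at 780.3 and 526.9, 1.48-fold lower (-0.57), with 78.5 and 57.9 (-0.44) from its other probe set. It lay just inside 1.5-fold and passed that limit after loess normalization, at -0.61. Kdm1a, which encodes LSD1, was at 957.3 and 1031.7 (0.11), with 0.08 from a second probe set. Kdm5c, an X-linked relative of Kdm5b, was below the floor on both arrays, at 25.9 and 21.5, and has no fold.

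Genes of H3K9 methylation and heterochromatin binding were all higher by some amount, as were 52.6% of all genes, with 0.28 as the median of 5. Cbx1, which encodes HP1 beta, had intensities of 346.5 and 548.5, 1.58-fold higher (0.66). A second probe set, near the floor at 36.2 and 39.7, gave 0.13, so the size of the difference of Cbx1 rests on its brightest probe set. Cbx5, which encodes HP1 alpha, was at 590.6 and 768.5 (0.38), with 0.12 and 0.47 from other probe sets above the floor. Cbx3, which encodes HP1 gamma, was at 3926.6 and 4185.3 (0.09), and its other probe set, at 2542.5 and 2713.0, also gave 0.09. The difference of Cbx3, and those of the dimmer probe set of Cbx1 and of 1 probe set of Cbx5, were within the probe set SD of 0.18.

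The H3K9 methyltransferase genes were closer together. Ehmt2, which encodes G9a and acts in euchromatin, was at 401.3 and 477.5 (0.25). Setdb1, which silences endogenous retroviruses, was at 208.3 and 252.3 (0.28). Each had a second probe set below the floor on both arrays, that of Ehmt2 at 29.3 and 24.1 and that of Setdb1 at 11.5 and 12.5. Neither gene reached 1.5-fold.

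Of 7 remodelers, 6 had a positive difference (85.7%, against 52.6% of all genes), and the median was 0.10. Chd4, at 0.00, counts among the 6, and loess or the mean of probe sets left 5 higher. Smarca5, the ISWI ATPase SNF2H that spaces nucleosomes, had intensities of 1410.7 and 2128.3, 1.51-fold higher (0.59). Its other probe sets, at 247.2 and 357.0 and at 647.8 and 783.5, gave 0.53 and 0.27, so all 3 were higher by more than the probe set SD. With the mean of probe sets it was at 0.47, short of 1.5-fold.

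Subunits of the SWI/SNF (BAF) complex differed less. Smarcc1, its scaffold, was at 444.0 and 484.1 (0.12), while its dimmer probe set, at 137.0 and 199.7, gave 0.54. Smarce1 was at 865.9 and 896.0 (0.05), with 0.32 from a dimmer probe set, and the core subunit Smarcb1 at 400.2 and 452.7 (0.18). The DNA-binding subunit Arid1a was at 785.0 and 840.5 (0.10), with -0.10 from its other probe set. Smarcd1, at 33.9 and 31.4 (-0.11), was close to the floor. Chd4, the ATPase of the NuRD complex that joins remodeling to deacetylation, was at 424.7 and 425.0 (0.00).

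**Figure D4:**
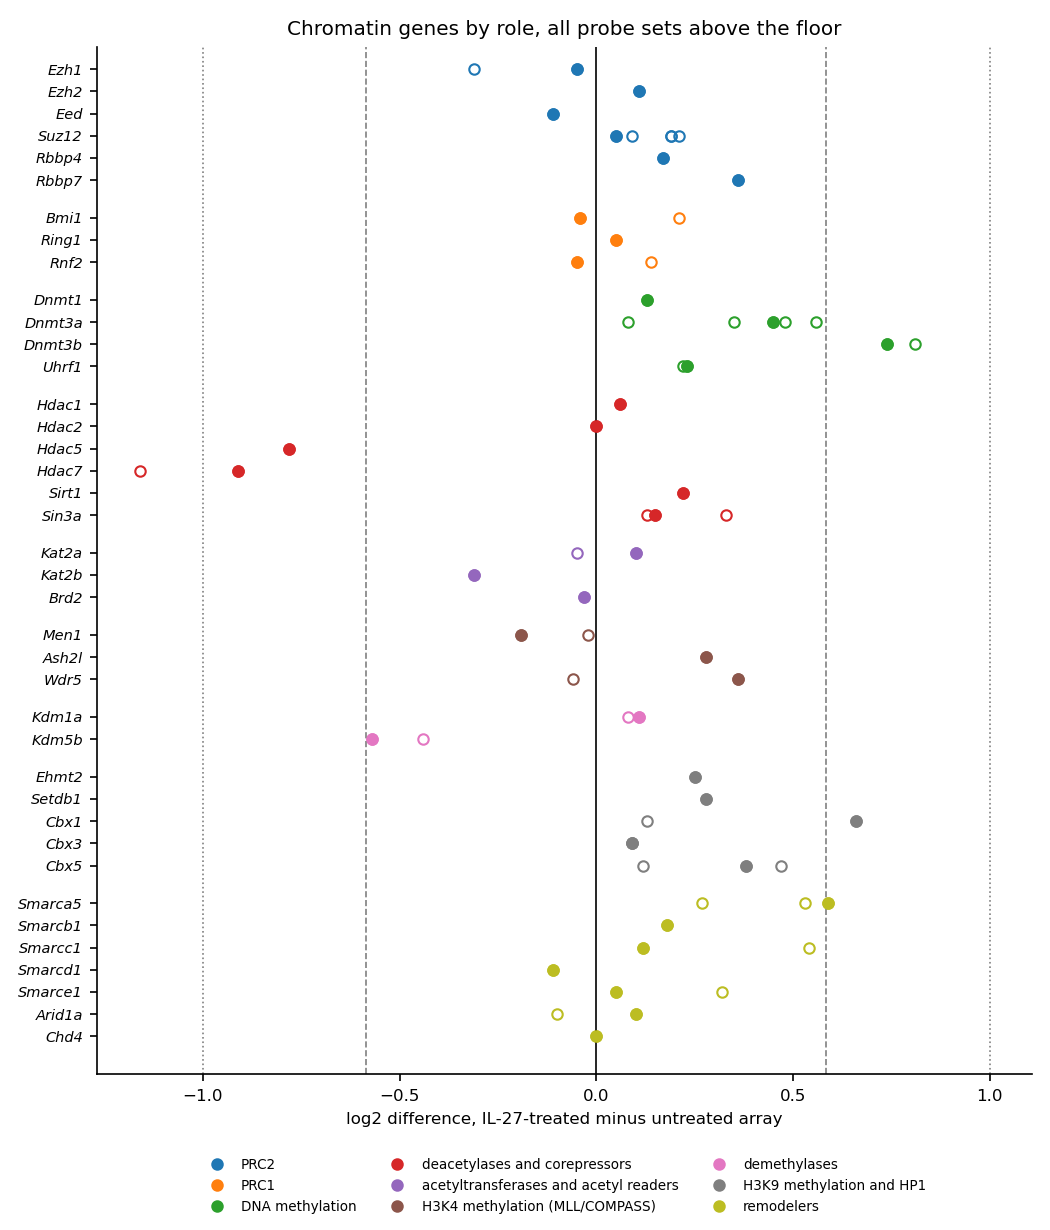
Log2 difference (x) of each of the 39 chromatin genes above the floor, ordered by role and coloured by it; filled points are the brightest probe set of a gene and open points its other probe sets above the floor. Dashed lines mark 1.5-fold and dotted lines 2-fold. Hdac7 and Hdac5 stand at the left, Dnmt3b at the right, and all points of the DNA methylation and of the H3K9 methylation and HP1 rows are above 0.

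The wider machinery was read from a second list of 174 chromatin genes outside the 49, of which 109 were measured and 98 were above the floor. None of the 98 was at least 2-fold higher and 2 were at least 2-fold lower (2.04%, against 2.79% of all genes). These were Chd7, a CHD-family remodeler that acts at enhancers, at 814.9 and 225.6 (3.61-fold lower, -1.85, by a single probe set), and Dpf1, a SWI/SNF subunit, at 67.3 and 27.8. Dpf1 was below the floor on the IL-27-treated array, and its second probe set was below it on both. The median of the list was -0.02, with 48 of the 98 (49.0%) on the higher side. That median turned to 0.02 when array medians were subtracted. Among the 39 members the share on the higher side was 71.8%, and the difference between the lists was not tested.

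By role, medians of the wider list lay on both sides of 0. Of 12 other deacetylase and corepressor genes 2 were higher by any amount (16.7%, against 52.6% of all genes), with a median of -0.09. Among them Hdac6, a cytoplasmic deacetylase of class IIb, was at 179.5 and 144.8 (-0.31), while the class IIa gene Hdac9 was below the floor on both arrays. Of 7 other demethylases 1 was higher (14.3%), with a median of -0.14. Other H3K4 methylation genes had 2 of 5 higher (40.0%, against 52.6% of all genes) and a median of -0.10. The members had 0.28, or 0.15 with the mean of probe sets. Other PRC1 genes had 7 of 11 higher (63.6%) and a median of 0.07. The members had -0.04, or 0.05 with the mean of probe sets. At these sizes the counts do not set the lists apart. The median was -0.01 over 4 other PRC2 genes, 0.01 over 11 acetyltransferase and reader genes and 0.08 over 4 genes of H3K9 methylation. It was 0.30 over 7 other histone methyltransferases and 0.18 over 5 histone chaperones. Other genes of DNA methylation had a median of 0.02 over 4, and other remodelers, Chd7 and Dpf1 included, 0.05 over 28. The Polycomb gene Cbx2, whose chromodomain reads the PRC2 mark, was at 69.1 and 104.8 (0.60). It was the only one of the 98 at least 1.5-fold higher (1.02%, against 5.25% of all genes). A second probe set of Cbx2 was below the floor on both arrays.

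The arrays were also scaled in other ways and read by other probe sets. For 32 of the 39 the sign was the same under all 6 alternatives that change a gene's value. It turned under at least 1 for Bmi1, Rnf2, Arid1a, Kat2a, Brd2, Hdac2 and Chd4, each of which differed by 0.10 or less to begin with. Hdac7 ranged from -1.03 to -0.87, Hdac5 from -0.80 to -0.66, Dnmt3b from 0.68 to 0.78 and Smarca5 from 0.47 to 0.63. Cbx1 ranged from 0.13 to 0.70, its low end being the dim probe set without a suffix.

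**Figure D5:**
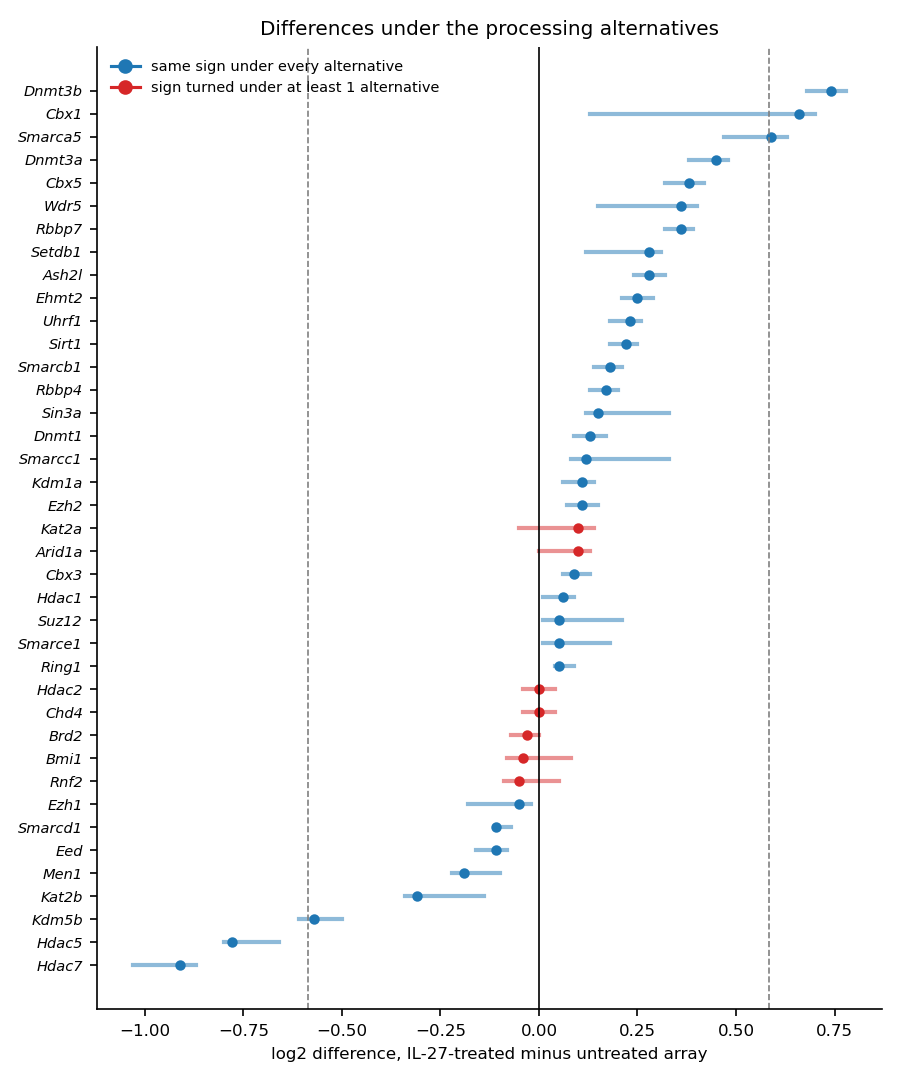
Log2 difference (x) of each of the 39 chromatin genes, sorted by value; points are the reported difference and bars reach from the lowest to the highest value over the alternatives. Red marks the 7 genes whose sign turned, all close to 0. Bars of Hdac7 and Hdac5 lie wholly beyond the dashed 1.5-fold line on the left and that of Dnmt3b on the right, while the bar of Cbx1 spans 0.13 to 0.70.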

How the data were processed

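RNA of 2 cultures (100 ng each) was labelled with biotin and hybridized to Affymetrix 3' arrays, per the labels' protocols. The deposited values are linear intensities, 1 for each probe set on each array, which the authors made with RMA, per the submitters' processing notes; its version is not given in the sources used here. Because RMA equalizes the distributions of arrays, a change in total RNA is not visible, and small values are drawn together. Median intensities were 33.3 and 32.4.

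Intensities were converted to log2 without further normalization (Python 3.11.15, pandas 2.3.3). Of 22716 probe sets, 18003 carried 1 gene symbol in the platform annotation, 287 several and 4426 none listed; only the first were used, and a gene was read by its brightest probe set. The floor came from 39 measured of 46 genes of other tissues. Probe sets of members above the floor, and counts at 2-fold and 1.5-fold, are given; of the 12 member probe sets below the floor on both arrays only a few are. Named were all members and, of the wider chromatin list, genes at least 2-fold apart. Socs3, Il21, Cbx2, Hdac6, Hdac9, Hdac11, Sirt3, Sirt4 and Sirt7, and the genes of the last section, were named after their values were seen. The procedure was tested on simulated data in which bright genes were changed by more than 2-fold. That test does not cover dim genes or differences as small as those of the members. The members and lists were chosen with earlier results of these data known. Alternatives were median subtraction, loess (span 0.4, statsmodels 0.14.6), other choices of probe set, a pseudocount of 16, dim values raised to the floor, no filter, a filter at an intensity of 61.1 and the lower fold limit. Promoter sequences are from RefSeq (GRCm38.p6). The RefSeq gene table gave the same symbol for all 40 measured members.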

Additional observations from a re-analysis of the deposited data

How the results depend on the processing

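The main limits are 1 array per group, no detection calls and compression of dim probe sets. No paired analysis was possible because each group has 1 array and no test was run. Over all settings tried, the members' median stayed between 0.06 (loess) and 0.14 (array medians subtracted) and 26 (of 37 or 39) to 29 (of 39) were on the higher side. All genes moved with these scalings as well. With loess, 3212 of all 6604 were higher, with a median of -0.01. With array medians subtracted 3778 were, with a median of 0.06. Subtracting array medians shifts every difference by 0.036. The 1.5-fold limit in place of 2-fold gave 3 members higher and 2 lower, 1 other chromatin gene higher, and 347 higher and 481 lower among all genes. The mean of probe sets left 1 member at least 1.5-fold higher and put 1 at least 2-fold lower, moved the H3K4 methylation median to 0.15 and turned the PRC1 median to 0.05 with 3 genes higher. The stricter filter left 0 PRC1 genes higher, of the 2 that passed it. Without a filter, 5663 of all 11807 genes were higher and their median was -0.01, as it was with loess (-0.01), which also turned the deacetylase and corepressor median to -0.01 and left 0 other chromatin genes at least 1.5-fold higher. The pseudocount left 0 such genes too, and 1 at least 2-fold lower. Subtracting array medians turned the acetyltransferase and reader median to 0.0018, with 2 higher, and that of the other chromatin genes to 0.02. Passing over probe sets with a suffix left 0 of 2 acetyltransferase and reader genes higher. Beyond the choice of genes or probe sets in each alternative, the causes were not tested.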

Other observations

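Several chromatin genes outside the members fell short of 1.5-fold and were picked here after their values were seen, so they show no more than their own values. Hells, a remodeler that supports DNA methylation, was at 571.1 and 835.4 (0.55) on the untreated and IL-27-treated array. Prmt1, the main arginine methyltransferase of histone H4, was at 1245.5 and 1792.3 (0.53), and Hat1, which acetylates newly made histone H4, at 720.5 and 1034.9 (0.52). Ruvbl1, an ATPase shared by several remodeling complexes, was at 366.3 and 520.1 (0.51), and Suv39h2, an H3K9 methyltransferase, at 73.4 and 101.1 (0.46). On the other side, Kmt2c, an H3K4 methyltransferase of enhancers, was at 109.4 and 74.8 (-0.55), and Asxl1, a partner of the Polycomb deubiquitinase, at 910.3 and 639.2 (-0.51). Sap30 and Ing2, subunits of the Sin3a deacetylase complex, were at 981.6 and 700.1 (-0.49) and at 678.9 and 463.5 (-0.55). Of 12 deacetylase and corepressor genes outside the members 10 were lower by any amount, as were 3114 of all 6604 genes. Ing1 among the 12 differed by -0.30 and Sap18 by 0.03. Of the members with this role, Hdac1 differed by 0.06, Hdac2 by 0.00, Sirt1 by 0.22 and Sin3a by 0.15. Hdac7 differed by -0.91 and Hdac5 by -0.78.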
